A study of Mus musculus with 35 samples.

Results

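The genes described here are 9 trophoblast lineage factors, Cdx2, Elf5, Gata2, Gata3, Tfap2a, Tfap2c, Hand1, Ascl2 and Plac1. They were taken by symbol from the 54446 genes of a bulk RNA-seq table covering 27 mouse libraries, and each symbol matched 1 identifier. All groups had 3 libraries and were labelled wild-type. In vivo, embryos labelled CD-1 gave 15 libraries, of the inner cell mass (ICM) at embryonic day (E) 3.5 and of the epiblast once per day from E4.5 up to E7.5. In vitro there were 12 libraries. EpiLCs, a formative state, were ESCs kept for 48 h in FGF2 and Activin-A, and 2D EpiSCs, a primed state, were ESCs converted in FGF2 and Activin-A. 3D EpiSCs, derived either from ESCs or from E5.5 epiblasts, grew in Matrigel with FGF2, Activin-A, XAV (an inhibitor of tankyrase that dampens Wnt signalling) and Noggin (a BMP antagonist). The 2D cultures were kept on fibronectin. The 3D and 2D cultures thus differed in geometry, substrate, base medium, Activin-A dose and inhibitors, whose contributions cannot be told apart. Embryo-derived 3D EpiSCs also differed from 2D EpiSCs in the cells of origin, which cannot be told apart from these either. Each embryo library was a pool of embryos. The ICM was cut out by laser at E3.5. At E4.5 trophectoderm was killed by immunosurgery, and by the study's methods embryos of the Pdgfra:H2B-GFP reporter line were then dissociated and GFP-negative cells picked, to leave primitive endoderm behind. At later stages extraembryonic ectoderm and visceral endoderm were taken off by hand, and at E7.5 the allantois as well.

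In the mouse blastocyst, the outer layer becomes trophectoderm, the source of the placenta, while the ICM yields epiblast and primitive endoderm. Cdx2, Gata3 and the TFAP2 factors act early in the trophectoderm, and TEAD4 acts upstream of Cdx2 and Gata3. Elf5 and Cdx2 then maintain trophoblast stem cells of the extraembryonic ectoderm, whereas Ascl2 and Hand1 act in spongiotrophoblast and giant cells. Several of these genes also work in the embryo proper after gastrulation starts, Cdx2 in the posterior body, Hand1 in extraembryonic and lateral mesoderm and Tfap2a, Gata2 and Gata3 in surface ectoderm. Plac1, a secreted or membrane protein of the placenta, is the one member that is not a transcription factor.

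The sequence before the start of a gene is among the places where such factors can bind, and 7 of the 9 genes had at least 1 start in the RefSeq promoter table (GRCm38.p6). Hand1 and Tfap2c were not in it. In the 250 bases before each of 11 starts, 4 short words were searched on both strands. The TFAP2 word was GCCNNNGGC, which reads the same on both. For GATA factors it was AGATAA, for TEAD factors GGAATG and for CDX factors TTTATG. Of 32851 such windows of all genes, 13.7% held the TFAP2 word, 9.99% the GATA word, 12.6% the TEAD word and 10.8% the CDX word. The 4 windows below are shown because they stand before genes that carry the main contrasts of the data, with matched words in capitals and each read 5′ to 3′ on the strand of the gene. Gata3 (chr2:9878601-9878850, minus strand) held 3 TFAP2 words, Cdx2 (chr5:147307250-147307499, minus strand) held 1, the downstream start of Elf5 (chr2:103423818-103424067, plus strand) held 1 CDX word, and Ascl2 (chr7:142969265-142969514, minus strand) held none.
Gata3: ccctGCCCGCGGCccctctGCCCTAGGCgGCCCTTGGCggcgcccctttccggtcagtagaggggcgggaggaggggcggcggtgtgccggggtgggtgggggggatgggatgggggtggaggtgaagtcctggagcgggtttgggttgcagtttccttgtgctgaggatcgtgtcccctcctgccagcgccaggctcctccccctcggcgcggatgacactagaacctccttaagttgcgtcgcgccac
Cdx2: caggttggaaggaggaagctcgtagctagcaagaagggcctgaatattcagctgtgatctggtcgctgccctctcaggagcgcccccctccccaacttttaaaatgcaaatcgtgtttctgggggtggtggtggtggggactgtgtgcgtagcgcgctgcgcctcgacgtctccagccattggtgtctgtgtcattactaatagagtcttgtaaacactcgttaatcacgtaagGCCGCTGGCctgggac
Elf5: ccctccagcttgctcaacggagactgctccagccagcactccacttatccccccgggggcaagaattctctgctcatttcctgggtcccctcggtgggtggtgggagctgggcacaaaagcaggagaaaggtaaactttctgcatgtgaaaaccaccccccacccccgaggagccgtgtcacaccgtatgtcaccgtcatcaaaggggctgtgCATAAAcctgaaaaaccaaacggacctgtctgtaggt
Ascl2: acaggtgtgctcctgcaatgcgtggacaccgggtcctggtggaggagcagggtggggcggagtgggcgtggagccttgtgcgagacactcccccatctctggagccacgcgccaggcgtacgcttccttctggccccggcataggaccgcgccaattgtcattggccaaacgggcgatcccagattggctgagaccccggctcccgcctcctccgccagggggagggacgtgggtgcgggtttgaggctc

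Such matches describe letters and not binding. The windows differed in CpG content, the substrate of DNA methylation. The Gata3 and Ascl2 windows held 19 CpGs each, more than 80.3% of all windows, and the Cdx2 window held 13. The 2 Elf5 windows held 2 and 8 CpGs, against a median of 6 over all windows. All 250 bases of the Gata3 window lie within exons of the antisense gene Gm13256.

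The measured value was the TPM (a transcript's share of a library, per length), which can be set side by side between genes but keeps no record of sequencing depth. Between 20324 and 26751 genes were above 0 TPM per library. Changes are differences of log2(TPM + 1) between group means, with a standard error from limma, and a gene was called when its Benjamini-Hochberg adjusted p over all tested genes was under 0.05 and its change exceeded 1 on that scale. Tests covered protein-coding genes with more than 2 TPM in at least 3 libraries, 11984 in vitro and 12332 in vivo. Of the 9 genes, 8 passed in vivo (all except Ascl2) and 3 in vitro (Gata3, Ascl2 and Tfap2c). The in vitro and in vivo libraries came from different kits and were never tested against each other. Embryo libraries were separate pools, whereas for the cultures the sources used here do not say that the 3 libraries of a group were grown separately, so p-values there measure the spread between these libraries, which may be technical. In bulk samples, fewer cells of a type and less RNA per cell cannot be told apart.

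The dissected libraries were checked against cell type markers before the stages were compared. All 10 trophectoderm epithelial markers but Krt19 averaged over 2 TPM in the E3.5 ICM, and all 10 did in the E4.5 epiblast. Their summed level ran from 5338 to 5442 TPM at E3.5 and from 4361 to 4583 TPM at E4.5, against 403 to 451 TPM at E5.5. Among them Krt18 (a simple-epithelium keratin) read 1646 to 1705 TPM at E3.5, and Fabp3 read 2083 to 2184 TPM. Epiblast markers were present as well, with Pou5f1 at 575 to 584 TPM at E3.5 and 378 to 420 TPM at E4.5. The libraries labelled E3.5 ICM and E4.5 epiblast thus carried RNA of defining trophectoderm genes in all 3 replicates, so no result on these stages could be repeated without such libraries. From E5.5 on, the visceral endoderm genes Ttr, Apoa1 and Afp were high, for instance Ttr at 80.0 to 89.5 TPM at E5.5 and 259 to 276 TPM at E7.5, in samples from which this layer had been removed.

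**Figure D1:**
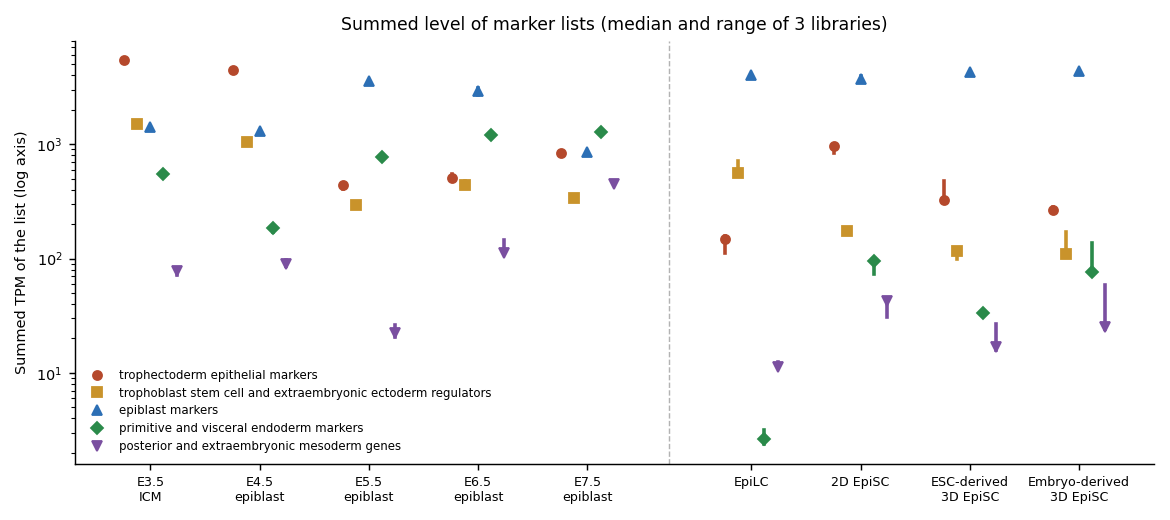
Summed TPM (log axis) of 5 marker lists in each group, with the median as a symbol and the range of the 3 libraries as a line; embryo stages stand left of the dashed line and cultures right of it. Trophectoderm epithelial markers sum to at least 4361 TPM at E3.5 and E4.5 and to at most 451 TPM at E5.5, while mesoderm genes are highest at E7.5.

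In vivo, 7 of the factors (Cdx2, Gata3, Gata2, Tfap2a, Tfap2c, Elf5 and Plac1) were high at both E3.5 and E4.5 and low at E5.5. Hand1 was high at E4.5 but highest at E7.5, and Ascl2 stayed low throughout. Of the 36 steps between neighbouring levels of a gene over the 5 stages, 29 separated groups whose libraries did not overlap and 7 joined groups that did. Overlap was not counted over all tested genes, so counts of it here and below describe these genes only and have no background. The genes of the earliest trophectoderm are given first, then those of the stem cell compartment and then those of later trophoblast.

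Cdx2 (ENSMUSG00000029646.3, mm10 chr5:147300805-147307270), the caudal homeobox factor that represses Pou5f1 in trophectoderm, read 158, 168 and 157 TPM in the E3.5 ICM and 22.6, 26.3 and 22.2 TPM in the E4.5 epiblast. It stood at 2.11, 3.15 and 3.32 TPM at E5.5, at 6.18, 6.11 and 3.52 TPM at E6.5 and at 59.0, 54.3 and 56.9 TPM at E7.5. The E3.5 libraries were the highest and the E7.5 libraries came second, above every E4.5 library, and no 2 stages overlapped.

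Gata3 (ENSMUSG00000015619.10, chr2:9857078-9890034), a zinc finger factor of trophectoderm, had the highest single value of the 9 genes, at 204, 212 and 220 TPM in the E3.5 ICM. It read 85.1, 84.6 and 93.7 TPM at E4.5 and 1.42, 1.31 and 1.22 TPM at E5.5. Levels of 1.41, 2.00 and 1.14 TPM at E6.5 overlapped those at E5.5, and 11.2, 10.4 and 10.7 TPM at E7.5 lay above both. Gata3 overlaps 3 other annotated genes, Gm13256 and 4930412O13Rik on the opposite strand and 9230102O04Rik on its own strand. Their means were at most 3.16 TPM at any stage, and the strand setting of the quantification is not given in the sources used here, so reads shared between them leave small Gata3 values uncertain.

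Gata2 (ENSMUSG00000015053.14, chr6:88193891-88207032), its paralog with roles in trophoblast and blood, read 52.3, 50.0 and 49.5 TPM at E3.5 and 47.0, 53.8 and 46.2 TPM at E4.5. These stages overlapped, unlike those of Gata3. From 0.590, 0.835 and 0.358 TPM at E5.5, Gata2 stood at 4.03, 3.29 and 2.60 TPM at E6.5 and at 8.50, 9.99 and 8.08 TPM at E7.5, with no overlap between these stages.

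Tfap2a (ENSMUSG00000021359.16, chr13:40715302-40738376) and Tfap2c (ENSMUSG00000028640.11, chr2:172549593-172558622) encode AP-2 factors that bind the same word, and their profiles parted. Tfap2a read 102, 98.0 and 108 TPM at E3.5, 75.7, 69.0 and 84.7 TPM at E4.5 and 0.692, 1.01 and 0.683 TPM at E5.5. It then stood at 1.68, 2.71 and 1.76 TPM at E6.5 and at 24.5, 26.9 and 21.2 TPM at E7.5, and none of its stages overlapped. Tfap2c, which also serves germ cells, read 37.6, 37.9 and 43.8 TPM at E3.5 and was higher at E4.5, at 122, 125 and 121 TPM. It stayed low afterwards, at 3.56, 3.97 and 3.18 TPM at E5.5, 7.61, 7.67 and 6.05 TPM at E6.5 and 7.62, 5.57 and 6.61 TPM at E7.5, where the last 2 stages overlapped. Tfap2a also overlaps 3 antisense genes, whose means were at most 0.479 TPM.

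Elf5 (ENSMUSG00000027186.14, chr2:103411688-103450989), an ETS factor that holds trophoblast stem cells in their state, was higher at E4.5 (124, 126 and 130 TPM) than at E3.5 (48.1, 47.3 and 53.7 TPM). It read 5.06, 2.86 and 3.88 TPM at E5.5 and 5.06, 4.59 and 4.71 TPM at E6.5, which overlapped. At E7.5 it was listed at 0 in 1 library and at 0.0926 and 0.579 TPM in the others. Elf5 was the one member that ended below its E5.5 level in every library.

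Hand1 (ENSMUSG00000037335.13, chr11:57828705-57832818), a basic helix-loop-helix factor of giant cells and of extraembryonic mesoderm, had the opposite start. It was lowest at E3.5 (0.923, 1.01 and 1.56 TPM) and reached 36.5, 26.3 and 26.1 TPM at E4.5. After 3.63, 2.49 and 3.65 TPM at E5.5 and 12.6, 7.34 and 9.30 TPM at E6.5, it peaked at 84.5, 77.7 and 83.8 TPM at E7.5. The E7.5 libraries were the highest of all and the E3.5 libraries the lowest, without overlap between any stages.

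Plac1 (ENSMUSG00000061082.11, chrX:53069995-53240111) stood at 11.6, 10.8 and 11.6 TPM at E3.5 and at 22.6 to 28.8 TPM at E4.5. It fell to 0.197, 0.619 and 0.410 TPM at E5.5, then read 2.52, 2.17 and 3.47 TPM at E6.5 and 3.92, 3.72 and 4.44 TPM at E7.5. Ascl2 (ENSMUSG00000009248.6, chr7:142966829-142969264), an imprinted factor of spongiotrophoblast expressed from the maternal allele, stayed under the threshold of the tests in vivo. Its highest values were 3.23, 1.51 and 1.07 TPM at E4.5, and it was listed at 0 in 1 library at E3.5 and was at most 0.858 TPM elsewhere in vivo. Plac1 followed the common course, while the Ascl2 libraries overlapped in 3 of 4 neighbouring pairs of its in vivo order.

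**Figure D2:**
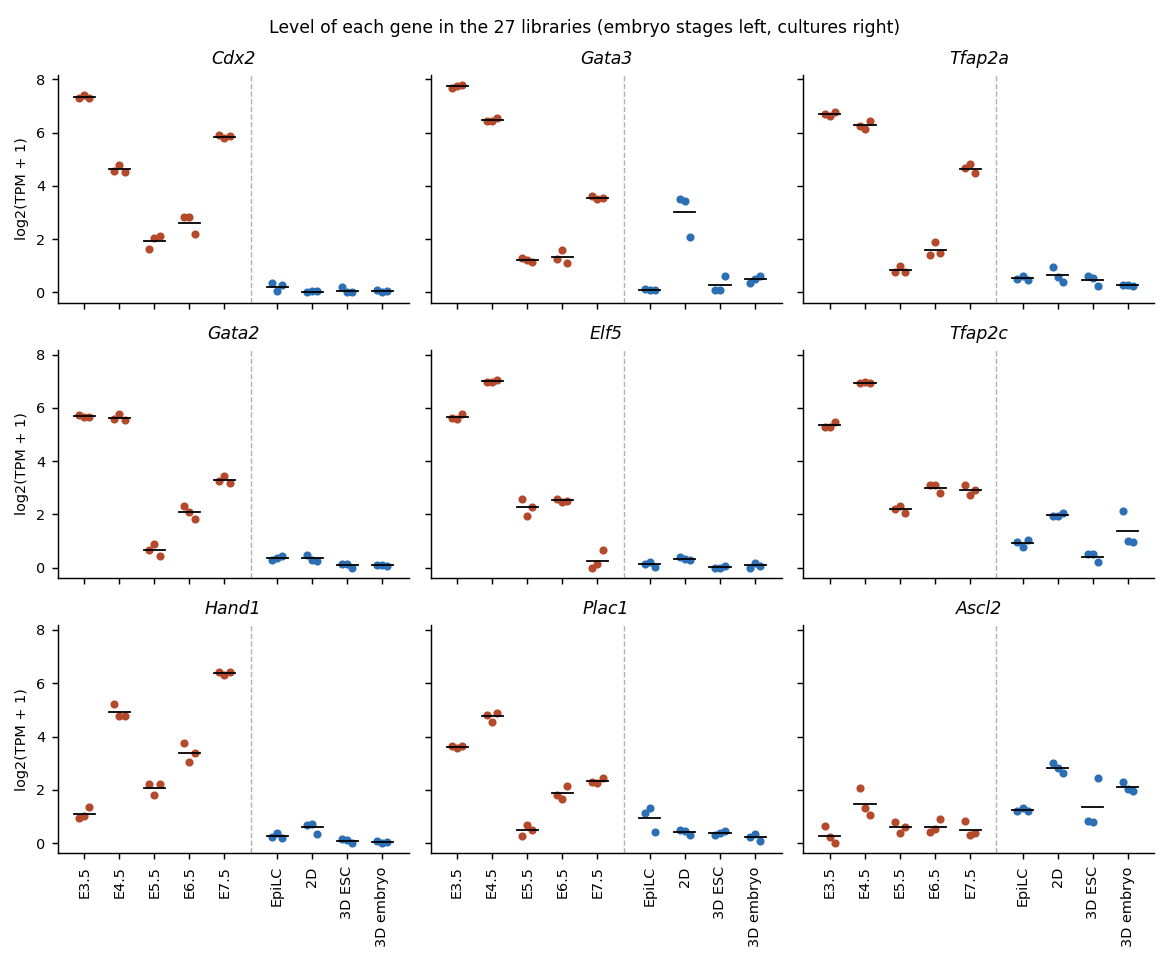
Level of each gene as log2(TPM + 1) in the 27 libraries, with points for libraries and bars for group means; embryo stages (red) stand left of the dashed line and cultures (blue) right of it. In 8 genes the E4.5 libraries lie far above the E5.5 libraries, Cdx2 and Hand1 are high again at E7.5, and Ascl2 is the one gene whose highest libraries are cultures.

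From E3.5 to E4.5, a step at which dissection and cell selection changed too, the genes split. Elf5, Tfap2c, Hand1 and Plac1 rose, Cdx2 and Gata3 fell, and Gata2 and Tfap2a were not called. Of the 9 genes, 4 were called higher and 2 lower, where 6.2% and 11.8% of all tested genes were (18.0% in either direction). Hand1 had the largest change of the members, 3.82 on the log2 scale (SE 0.19, adjusted p = 1.26e-09 by limma), the 23rd highest of 12332 genes. Tfap2c rose by 1.60 (SE 0.12), Elf5 by 1.33 (SE 0.17) and Plac1 by 1.13 (SE 0.14), while Cdx2 fell by 2.72 (SE 0.17) and Gata3 fell by 1.26 (SE 0.11). The median over all tested genes was -0.09. Gata2 changed by -0.05 (adjusted p = 0.79) and Tfap2a by -0.43 (adjusted p = 0.016), both under the size threshold. Without a filter on low values, Ascl2 also passed, with 1.20 (SE 0.26, adjusted p = 0.0026 by limma).

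The wider lists moved in both directions at this step. Of 12 regulators of trophoblast stem cells and extraembryonic ectoderm, 11 were tested, 3 rose (led by Rhox6, by 2.85, and Ets2, by 2.08) and 2 fell (Klf5, by 1.49, and the FGF receptor gene Fgfr2, by 1.20). Of the 10 trophectoderm markers, 4 were called higher, led by Krt19 (4.28) and Krt7 (2.95), and none was called lower. Aqp3 stayed just under the size threshold (-0.99, adjusted p = 5.2e-05 by limma), and the list median was -0.06. Among 13 paralogs of the members, 7 were tested and 4 fell, with Gata6, of primitive endoderm, at -3.63 and Gata4 at -2.16. The primitive and visceral endoderm list, which shares these 2 genes, had 7 of 12 genes lower, led by Pdgfra (-4.78), and none higher. The E4.5 cells had been picked for lack of a Pdgfra reporter, and the dissection changed from laser cutting to immunosurgery. For the members, the trophectoderm markers and the endoderm genes alike, stage, dissection and cell selection cannot be told apart at this step. Nanog fell by 2.56 while Fgf5, of the later epiblast, rose by 3.38.

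From E4.5 to E5.5, every tested member fell. All 8 were called lower, where 9.71% of all tested genes were lower, 15.2% higher and 24.9% called in either direction, and the median over all tested genes was 0.16. Tfap2a had the largest change, -5.43 (SE 0.14, adjusted p = 1.12e-12 by limma), which is 43.1-fold on the TPM + 1 scale and the 20th lowest of 12332 genes. Gata3 changed by -5.26 (38.3-fold), Gata2 by -4.98 (31.5-fold), Tfap2c by -4.76 (27.1-fold), Elf5 by -4.72 (26.3-fold) and Plac1 by -4.27 (19.3-fold). Hand1 (-2.84) and Cdx2 (-2.69) changed least, and for all 8 the libraries of the stages did not overlap. Ascl2, without the filter, changed by -0.90 (adjusted p = 0.013) and was not called.

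The trophectoderm markers moved with them. All 10 fell, led by Lgals3 (-6.73) and Tspan8 (-6.39), with a list median of -3.38. Of the trophoblast stem cell and extraembryonic ectoderm regulators, 9 of the 11 tested fell and none rose, with Klf5 at -4.24 and Fgfr2 at -3.55. Tead4, which acts upstream of Cdx2 and Gata3, read 81.4 to 89.9 TPM at E4.5 and 7.51 to 8.92 TPM at E5.5. Among markers of differentiated trophoblast, the connexin gene Gjb5 (-1.97) fell, while 10 of 16, among them Tpbpa and Prl3b1, were listed at 0 in every E4.5 library. Endoderm genes went the other way, with 7 of 12 higher, Apoa1 by 7.75 and Afp by 6.36. The dissection also changed at this step, from immunosurgery and picking of GFP-negative cells at E4.5 to removal of layers by hand, and so did RNA fragmentation in the library protocol. Stage, dissection, cell selection and library protocol cannot be told apart here.

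From E5.5 to E6.5, Gata2 (1.43, SE 0.13), Plac1 (1.40, SE 0.14) and Hand1 (1.32, SE 0.19) rose. These 3 of the 9 were called higher, where 0.738% of all tested genes were, and no member was called lower, against 0.462%. Tfap2c (0.82), Tfap2a (0.75) and Cdx2 (0.68) had adjusted p of 0.00070, 0.0037 and 0.019 but changes under 1, and their libraries did not overlap between the stages. Elf5 changed by 0.25 (adjusted p = 0.37) and Gata3 by 0.10 (adjusted p = 0.59). With a pseudocount of 0.1, Tfap2a passed the size threshold (1.25, adjusted p = 0.0018).

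Hormone genes of trophoblast giant cells appeared at E6.5. Prl3d1 read 33.0 to 38.7 TPM, against at most 0.676 TPM at E5.5, and rose by 4.78, and Prl2c2 rose by 1.89. Both genes passed the filter only through the E6.5 libraries, so being tested already required high values at E6.5. The 16 differentiated trophoblast markers summed to 43.0 to 51.9 TPM at E6.5, to 5.87 to 6.96 TPM at E5.5 and to 11.3 to 12.5 TPM at E7.5, and 7 of the 16 (Prl3b1, Tpbpa, Synb, Ctsq, Pappa2, Psg17 and Psg21) were listed at 0 in every E6.5 library. Of 10 trophectoderm markers, Aqp3 (1.04) rose and none fell, and of the stem cell regulators Eomes (1.03), which is also a gene of the primitive streak, rose and none fell. Posterior and extraembryonic mesoderm genes rose in 4 of 12 tested cases, with Mesp1 at 4.82 and T at 2.36. The part of giant cell or mesoderm RNA in the change of Gata2, Plac1 and Hand1 was not tested.

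From E6.5 to E7.5, Cdx2, Tfap2a, Hand1, Gata3 and Gata2 rose, Elf5 fell and Plac1 and Tfap2c were not called. Of the 9 genes, 5 were called higher and 1 lower, where 10.7% and 1.95% of all tested genes were. Cdx2 changed by 3.23 (SE 0.17, adjusted p = 4.04e-09 by limma), Tfap2a by 3.06 (SE 0.14), Hand1 by 2.98 (SE 0.19) and Gata3 by 2.24 (SE 0.11), while Elf5 fell by 2.27 (SE 0.17). The median of all tested genes was 0.32 at this step, and rescaling of the libraries by median-of-ratios factors brought it to 0.01. Genes called lower made up 15.3% of all called genes and 35.4% after rescaling. Gata2, called at 1.20, then fell short of the size threshold at 0.91 (adjusted p = 0.00015). Plac1 (0.45, adjusted p = 0.016) and Tfap2c (-0.10, adjusted p = 0.51) stayed under the threshold.

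Mesoderm and ectoderm genes also changed at this step, in samples from which the allantois had been removed. Of 13 posterior and extraembryonic mesoderm genes, 12 were tested, 11 rose, led by Cdx1 (6.80) and Hand2 (4.51), and only Mesp1 fell (-1.92). The list had a median of 2.54 and summed to 437 to 459 TPM at E7.5. Cdx1 and Hand2, also paralogs of Cdx2 and Hand1, read 119 to 130 TPM and 29.6 to 36.6 TPM at E7.5 and at most 0.376 TPM and 0.788 TPM at E6.5. Of 8 surface ectoderm genes, 5 were tested and Dlx5 (3.51), Dlx3 (3.08) and Wnt6 rose. BMP response genes rose in 5 of 8 tested cases and Wnt response genes in 5 of 9, and neither list had a gene lower. Hand2, Foxf1, Cdx4, Tal1, Dlx5, Dlx3, Lgr5 and Rnf43 passed the filter only through the E7.5 libraries. For these genes, being tested already required high values at E7.5, so the counts of rising genes in their lists were partly fixed in advance. Trophoblast genes did not follow as a group. Of the stem cell regulators, Fgfr2 (3.20), Bmp4 (1.86) and Id2 rose while Eomes (-4.99) and Esrrb (-3.39) fell, and of the 10 trophectoderm markers 2 rose and 2 fell. Prl3d1, which had passed the filter only through the E6.5 libraries, fell by 4.83. Epiblast markers fell in 7 of 8 cases, with Tdgf1 at 0.410 to 0.814 TPM and Pou5f1 still at 241 to 258 TPM at E7.5.

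**Figure D3:**
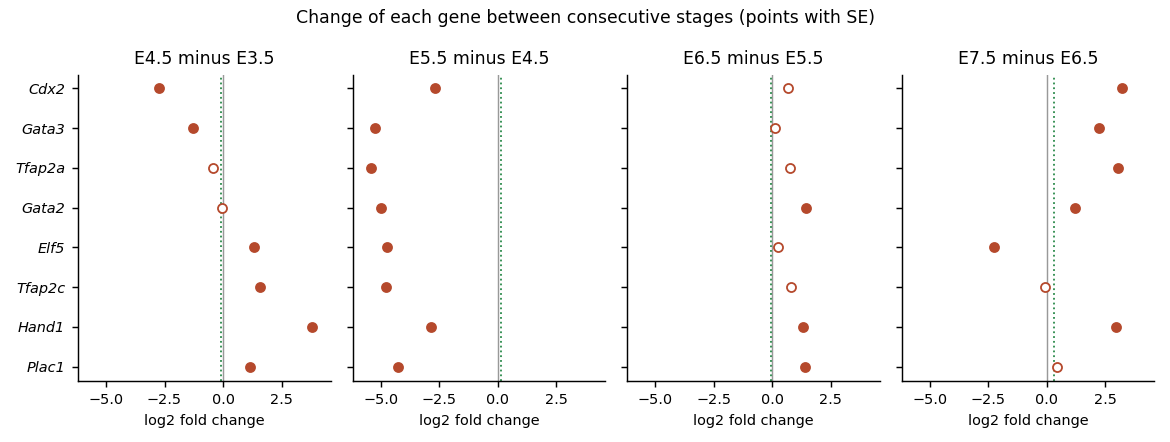
Change of the 8 genes tested in vivo between consecutive stages, as differences of log2(TPM + 1) with standard errors (shorter than most symbols); filled points were called, open points were not, and the dotted line is the median of all tested genes. All 8 points lie left at E5.5 minus E4.5, and Cdx2 and Elf5 part at E7.5 minus E6.5.

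In vitro, the factors were low. Cdx2, Elf5, Gata2, Tfap2a, Hand1 and Plac1 never passed 2 TPM in the 12 cultures, with maxima of 0.266, 0.311, 0.409, 0.935, 0.652 and 1.46 TPM in that order. Cdx2 was listed at 0 in 4 cultures, Elf5 in 3 and Hand1 in 2. With no filter on low values, limma called none of the 36 tests of these 6 genes over 6 comparisons, although 15 had an unadjusted p under 0.05 and 13 an adjusted p under 0.05. Their changes lay between -0.74 and 0.33. The shares of all genes under these p thresholds are not given here, so the counts of 15 and 13 have no background. Over the 4 cultures, 21 of 27 steps between neighbouring levels of a gene joined groups that overlapped, again without a count over all genes.

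Gata3 stood apart in 2D EpiSCs, at 10.3, 9.79 and 3.26 TPM. It read 0.0827, 0.0525 and 0.0552 TPM in EpiLCs, 0.0784, 0.0618 and 0.550 TPM in ESC-derived 3D EpiSCs and 0.283, 0.425 and 0.547 TPM in embryo-derived 3D EpiSCs. Every 2D EpiSC library lay above all others, and replicate 3 was the lowest of them. Gata3 passed the filter only through these 3 libraries, and Tfap2c through them and 1 embryo-derived library, so against 2D EpiSCs the adjusted p of both genes is given from the fit without a filter, over 18037 genes. Ascl2 had the highest mean of the 9 genes in EpiLCs and in both 3D cultures. It read 6.97, 6.05 and 5.13 TPM in 2D EpiSCs, 3.85, 3.08 and 2.88 TPM in embryo-derived 3D EpiSCs and 1.32, 1.52 and 1.28 TPM in EpiLCs. ESC-derived 3D EpiSCs were split, with 0.770 and 0.715 TPM in replicates 1 and 2 and 4.38 TPM in replicate 3. The 2D EpiSC libraries were again the highest without overlap, and the split group overlapped with both remaining cultures.

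Tfap2c read 2.85, 2.80 and 3.14 TPM in 2D EpiSCs and 0.944, 0.703 and 1.07 TPM in EpiLCs. It was lowest in ESC-derived 3D EpiSCs, at 0.435, 0.416 and 0.169 TPM. Embryo-derived 3D EpiSCs had 3.36 TPM in replicate 1 and 1.02 and 0.953 TPM in replicates 2 and 3, so this group overlapped with 2D EpiSCs and with EpiLCs. Some replicates were nearly identical across genes. Replicates 1 and 2 of ESC-derived 3D EpiSCs and of 2D EpiSCs, and 2 and 3 of embryo-derived 3D EpiSCs, had a median absolute log2 difference of 0.061, 0.065 and 0.057, where all other pairs were at 0.103 or more. Whether such a pair is 1 library cannot be read from TPM, and results with each pair averaged are given where they change a call.

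**Figure D4:**
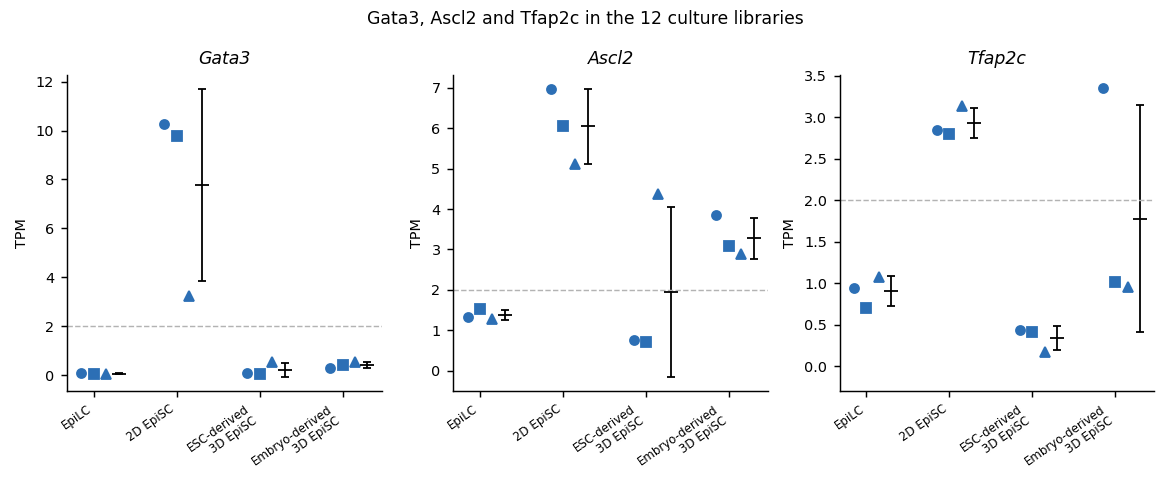
TPM of Gata3, Ascl2 and Tfap2c in the 12 culture libraries (circle, square and triangle for replicates 1, 2 and 3), with the mean ± SD of each group beside them and the 2 TPM filter as a dashed line. 2D EpiSCs hold the highest Gata3 and Ascl2 libraries, and replicate 3 of ESC-derived 3D EpiSCs (Ascl2) and replicate 1 of embryo-derived 3D EpiSCs (Tfap2c) lie far from their partners.

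From EpiLCs to 2D EpiSCs, Gata3, Ascl2 and Tfap2c rose. Ascl2 changed by 1.56 (SE 0.34, adjusted p = 0.0020 by limma). Without a filter, Gata3 changed by 2.92 (SE 0.33, adjusted p = 6.69e-05) and Tfap2c by 1.05 (SE 0.26, adjusted p = 0.0079). These were 3 of the 9 genes, and with the filter 15.5% of all tested genes were called higher and 5.29% lower. Tfap2c was close to the size threshold and missed it after rescaling (0.89) and without EpiLC replicate 2 (0.97). Rescaling moved the median of all genes from 0.19 to -0.05 and the share of lower genes among those called from 25.4% to 39.4%. Epithelial trophectoderm markers rose in 5 of 7 tested cases, Krt19 by 4.79 and Krt8 by 4.33, and none fell. Of 9 tested stem cell regulators, Eomes (3.26), Tead4 (1.80), Fgfr2 (1.38) and Klf5 rose, while Rhox5 (-7.09) and Esrrb (-2.18) fell. The paralogs Gata6 (4.22) and Gata4 (2.68), which mark endoderm, rose as well, and so did 4 of 6 tested BMP response genes, led by Id1 (3.36). Gata4 passed the filter only through the 2D EpiSC libraries. Rhox5 and Esrrb would not have passed it without the EpiLC libraries, with at most 3.41 and 2.15 TPM in 2D EpiSCs.

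In ESC-derived 3D EpiSCs, the 3 factors were lower than in 2D EpiSCs. Ascl2 changed by -1.47 (SE 0.34, adjusted p = 0.0053 by limma). Without a filter, Gata3 changed by -2.73 (SE 0.33, adjusted p = 0.00038) and Tfap2c by -1.56 (SE 0.26, adjusted p = 0.0021). These were 3 of the 9 genes, and with the filter 9.34% of all tested genes were called lower and 0.651% higher. The median over all tested genes was -0.21. It came to 0.02 after rescaling, when the share of lower genes among those called went from 93.5% to 81.5%. With near-identical replicates averaged, Ascl2 was no longer called (-1.15, adjusted p = 0.098). Without replicate 3 of the ESC-derived cultures, its change was -2.01.

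In embryo-derived 3D EpiSCs, Gata3 was the one factor called lower than in 2D EpiSCs, with a change of -2.51 (SE 0.33, adjusted p = 0.00059 by limma without a filter). This was 1 of the 9 genes, and with the filter 7.74% of all tested genes were lower and 1.04% higher (8.79% in either direction). Ascl2 (-0.72, adjusted p = 0.13) and Tfap2c (-0.61, adjusted p = 0.12 without a filter) were not called, although the Ascl2 libraries did not overlap. When any 2D EpiSC library was left out, Gata3 dropped below the filter and was not tested. With the tested genes held fixed, its change was between -2.26 and -2.96.

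Both 3D cultures share the 2D EpiSC libraries as their reference, so their values are given side by side. Krt19 changed by -3.60 in ESC-derived and by -4.28 in embryo-derived 3D EpiSCs, Tead4 by -2.11 and by -1.66, Fgfr2 by -2.46 and by -2.11, and Id1 by -2.55 and by -1.90. Trophectoderm markers were lower in 4 and in 5 of 7 tested cases, and stem cell regulators in 4 and in 4 of 9. Neither list had a gene higher. Of 3 tested surface ectoderm genes, Grhl3 and Dlx3 were lower in both. Endoderm genes were lower in 3 of 5 tested cases in ESC-derived cultures (Sox17, Gata6 and Gata4), and in 2 of 5 (Gata4 and Sox17) in embryo-derived cultures, where Pdgfra and Foxa2 were higher. Dlx3 and Gata4 passed the filter only through the 2D EpiSC libraries, so being tested already required high values there. Likewise, Pdgfra passed it only through the embryo-derived libraries, the group in which it was called higher. Epiblast markers had no gene called in either comparison.

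Compared directly, the 3D cultures differed in none of the 3 factors by the call rule, where 3.98% of all tested genes were called in either direction, 1.99% higher and 1.99% lower. By limma, 2 of the 3 had an unadjusted p under 0.05, a count given without a background over all genes. Tfap2c was lower in ESC-derived cultures by a change of -0.95 (SE 0.25, adjusted p = 0.022) with no overlap, Ascl2 changed by -0.75 (SE 0.34, adjusted p = 0.13) and Gata3 by -0.22 (adjusted p = 0.61). Single libraries moved the first 2 values. Tfap2c changed by -0.57 (adjusted p = 0.011) without replicate 1 of the embryo-derived cultures and was called without replicate 2 (-1.13, adjusted p = 0.025) or 3 (-1.15, adjusted p = 0.020) of them, and Ascl2 read -1.29 (adjusted p = 5.68e-05) without replicate 3 of the ESC-derived cultures. In this comparison 49.9% of the called genes were lower, and 33.7% after rescaling.

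Against EpiLCs, none of the 3 factors was called in either 3D culture. With a pseudocount of 0.1, which gives low values more weight, Tfap2c was called in ESC-derived cultures (-1.24, adjusted p = 0.032) and Gata3 in embryo-derived cultures (1.64, adjusted p = 0.024). Of all tested genes, 12.7% were called in ESC-derived cultures (5.47% higher and 7.28% lower) and 19.1% in embryo-derived cultures (10.7% higher and 8.39% lower). In ESC-derived cultures, limma gave no unadjusted p under 0.05, with Tfap2c at -0.51 (adjusted p = 0.11), Gata3 at 0.19 (adjusted p = 0.64) and Ascl2 at 0.10 (adjusted p = 0.83). Without replicate 3 of these cultures, Ascl2 changed sign, to -0.44 (adjusted p = 0.015). In embryo-derived cultures 1 factor had an unadjusted p under 0.05 by limma, and neither count has a background over all genes. Ascl2 stood at 0.84 (adjusted p = 0.053), Tfap2c at 0.44 (adjusted p = 0.15) and Gata3 at 0.41 (adjusted p = 0.27). Keratins did differ here, with Krt8 higher than in EpiLCs by 2.80 and by 2.27. Germ cell genes, a further context of Tfap2c, were lower in 4 of 5 tested cases in ESC-derived and in 3 of 5 in embryo-derived cultures, with Dppa3 at -3.19 and -3.23, and Kit was higher in embryo-derived cultures (1.82). Dppa3 passed the filter only through the EpiLC libraries.

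Over all 27 libraries and 13082 genes, the profiles most like those of the factors were found by Pearson's r on the log2 scale. These are descriptions, since libraries share groups and kits. Gata2 was closest to Aqp3 (0.986), Tfap2a (0.984) and Actb (0.972), Tfap2a to Gata2, Pitx1 (0.971) and Aqp3 (0.967), and Plac1 to Gata2 (0.966), Cbfa2t3 (0.960) and Actb (0.956). Gata2 and Tfap2a were thus in each other's list, and Gata2 was in that of Plac1. Gprc5a (0.970) and Ahnak (0.968) were among the profiles most like Gata3, and Cdx2 was closest to Klb (0.971), Dmgdh (0.970) and Brwd1 (0.959). Tfap2c was closest to Htra1 (0.960), Tead4 (0.953) and Serpinb6c (0.949), and Gcnt4 (0.957) and Serpinb6c (0.954) were among those most like Elf5, so that Serpinb6c is shared by these 2 members. Hand1 was closest to Nrp2 (0.971), and Ascl2 had the lowest likeness, with Thbs2 at 0.932.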

How the data were processed

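Bulk RNA-seq of 27 libraries in 9 groups was used, grouped by their GEO labels. Single-cell RNA and bisulfite samples, among the 35 of the series, were not analysed here. Per the methods and the submitters' processing notes, the authors ran cutadapt 2.4 for trimming, STAR for alignment on mm10 and StringTie for GENCODE genes, and deposited the TPM. In vitro libraries were made by stranded poly-A capture and those in vivo with a total RNA kit that removes ribosomal cDNA. TPM keep no depth, so no counting interval is given and small values cannot be told from 0 at an unknown depth.

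Lines of an identifier listed several times were summed. Values were log2(TPM + 1), and the 6 pairs of cultures and 4 consecutive stages were compared with limma 3.58.1 (R 4.3.3), with 1 fit for the 12 in vitro and 1 for the 15 in vivo libraries and Benjamini-Hochberg adjustment over all genes of a comparison. The study's count model needs counts, and so was not used. X-linked genes were kept because of Plac1. On simulated data, 200 of 200 genes given a log2 change of 2 were recovered for ESC-derived 3D EpiSCs against 2D EpiSCs (11984 genes, 1 false call) and 198 of 200 for E6.5 against E5.5 (12332 genes, 4 false calls). The changed genes were drawn from those with a mean log2(TPM + 1) over 2. Recovery at lower levels, such as those of the members in vitro, was not simulated. Named were the members, at most 2 called genes per list, direction and comparison, tissue markers, and the 3 genes most like each member, of which some are not reported here; other genes named were chosen after their values were seen. The members and lists were chosen with earlier results of these data known.

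Alternatives were a pseudocount of 0.1, no filter, median-of-ratios rescaling, a replicate block, a fit of the compared groups alone, a trended prior, autosomes only, all genes, a single fit of all libraries, near-identical replicates averaged and each library left out. Holding the tested genes fixed was added after the data were seen. Biotypes and overlaps came from GENCODE vM21 and promoters from RefSeq. Python 3.11.15, numpy 2.4.6, pandas 2.3.3 and matplotlib 3.10.9 were used.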

Additional observations from a re-analysis of the deposited data

Results flagged for a closer look

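Tfap2c differed between the 3D cultures in its change from 2D EpiSCs, which was -1.56 in ESC-derived and -0.61 in embryo-derived 3D EpiSCs. The difference, tested directly by limma, was -0.95 (SE 0.25, adjusted p = 0.022), below the size threshold of 1. All 3 ESC-derived libraries lay below all 3 embryo-derived libraries. Without replicate 1 of the embryo-derived cultures the difference was -0.57 (adjusted p = 0.011). That replicate stood at 3.36 TPM and every other library of the 3D cultures at 1.02 TPM or less. The adjusted p by limma ran from 0.0014 to 0.089 over the alternatives, and from 0.011 to 0.056 over the fits that left out 1 library.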

How the results depend on the processing

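Of 50 tests of single members, 38 kept their direction and call under every alternative that gave a value. Averaging near-identical replicates left 1 member called for ESC-derived 3D EpiSCs minus 2D EpiSCs and 0 for embryo-derived 3D EpiSCs minus 2D EpiSCs, since Gata3 then failed the filter in both and Ascl2 lost its call in the first (-1.15). Leaving out each library in turn gave 2 to 3, 0 to 1 and 0 to 1 called members for ESC-derived minus 2D, embryo-derived minus 2D and ESC-derived minus embryo-derived cultures, and 2 to 3 for 2D EpiSCs minus EpiLCs. A pseudocount of 0.1 gave 1 called member for ESC-derived minus embryo-derived 3D EpiSCs (Tfap2c, -1.92), 1 for ESC-derived 3D EpiSCs minus EpiLCs (Tfap2c, -1.24) and 1 for embryo-derived 3D EpiSCs minus EpiLCs (Gata3, 1.64). Signs turned for Gata2 from E3.5 to E4.5 after rescaling (0.061) and, over the fits that left out 1 library, for Gata3 from E5.5 to E6.5 (-0.028 to 0.215, negative without E6.5 replicate 2), Tfap2c from E6.5 to E7.5 (-0.193 to 0.0051, positive without E7.5 replicate 2) and Ascl2 in ESC-derived 3D EpiSCs minus EpiLCs (-0.445 to 0.380, negative without ESC-derived replicate 3). The cause was not tested.

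Same-numbered replicates did not deviate together (mean r -0.029 in vitro and -0.016 in vivo). The numbers thus gave no sign of paired samples, though a mean r near 0 cannot exclude pairing. With the replicate block, 3, 1, 0, 3, 0 and 0 members were called in vitro and 6, 8, 3 and 6 in vivo, as without it.

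Counts over all genes moved by more than 1.5 times in some settings. A pseudocount of 0.1 raised the higher genes of ESC-derived 3D EpiSCs minus 2D EpiSCs from 78 to 139 and those of ESC-derived minus embryo-derived cultures from 239 to 392, with lower genes there from 238 to 358. It also raised those of E6.5 minus E5.5 from 91 to 141 (higher) and from 57 to 131 (lower), and the lower genes of E7.5 minus E6.5 from 240 to 372. Rescaling gave 160 higher and 703 lower genes (from 78 and 1119) for ESC-derived minus 2D, 147 lower (from 238) for ESC-derived minus embryo-derived cultures and 740 higher and 405 lower (from 1325 and 240) for E7.5 minus E6.5. All genes instead of protein-coding ones gave 311 higher (from 125) for embryo-derived minus 2D, 190 lower (from 57) at E6.5 and 2038 higher (from 1325) at E7.5. Averaging near-identical replicates gave 723 lower (from 1119) for ESC-derived minus 2D and 91 lower (from 238) for ESC-derived minus embryo-derived cultures, or 102 with the tested genes held fixed. Leaving out single libraries moved the lower genes of ESC-derived minus embryo-derived cultures to 157 (without ESC-derived replicate 2) and 442 (without replicate 3), of 2D EpiSCs minus EpiLCs to 356 to 387 (from 634, without each EpiLC replicate) and of ESC-derived cultures minus EpiLCs to 566 (from 872, without EpiLC replicate 1).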

Other observations

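Between the 3D cultures, 8 of 9 Wnt response genes were tested, and Lgr5, Sp5 and Nkd1 were lower in ESC-derived cells while none was higher. Their summed level was 127 to 150 TPM in ESC-derived and 173 to 188 TPM in embryo-derived 3D EpiSCs. Of 6 tested BMP response genes, 2 were lower than in 2D EpiSCs in each 3D culture, Id1 and Id3 in ESC-derived and Id1 and Id2 in embryo-derived cells, while Smad7 was higher in both. The list medians were -0.54 and -0.75. These lists overlap with others in Id2, Msx1 and Msx2.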
